A study of Mus musculus with 4 samples.

Results

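Lenses of CRYAAN101D transgenic mice at 4 months were set against lenses of CRYAAWT transgenic mice of the same age, gene by gene, by RNA sequencing. CRYAAN101D mice, called N101D here, make an alpha A crystallin in which the asparagine of the N101D site is replaced by aspartate, a residue that deamidation leaves. CRYAAWT mice, called WT here, make the unmodified alpha A crystallin, so the animals of both groups carry a transgene, and both have the C57BL/6 background. There was 1 library for each genotype at 4 months. The series holds 4 libraries in all, the other two being N101D and WT at 2 months. The promoter of the transgenes, the number of founder lines, the number of lenses per library and the sex of the mice are not given in the sources used here. Every difference is therefore a comparison of 2 libraries with no replicate check, and no p-value is given.

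A gene was taken into the comparison when it had a symbol, an estimate that the authors' software did not mark as failed, and at least 1 FPKM in either library. FPKM counts the fragments of a gene per kilobase of transcript and relative to all mapped fragments. Where a symbol stood on several rows of the tables, the row of highest mean FPKM stood for it. Of 21418 symbols with a usable row, 11242 met these conditions, against 11497 that reach 1 FPKM in any of the 4 libraries and 11013 at 2 months. Of the 11242 genes, 11039 reached 1 FPKM in N101D and 10824 in WT. The difference of a gene is log2(FPKM + 1) in N101D minus the same in WT. On this scale the change of a gene of low FPKM looks smaller than its ratio.

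The lens is an epithelium of a single layer over a mass of elongated fiber cells. Fibers fill with crystallins and then lose their nuclei and organelles. Alpha A crystallin is a small heat shock protein that keeps other crystallins in solution, and its asparagines deamidate slowly over life because mature fibers hardly renew their protein. The lens itself has no nerves and no vessels. It is wrapped in a capsule, a thick basement membrane of type IV collagen and laminin, and neighbours the ciliary body, the iris and the retina in the eye.

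Both libraries had the profile of lens. Cryaa was at 44741 FPKM in N101D and 41937 FPKM in WT (difference 0.09). The beaded filament genes stood at 2701 FPKM in N101D against 2957 in WT (Bfsp1) and 1537 FPKM in N101D against 1858 in WT (Bfsp2). Mip, the fiber aquaporin, was marked as failed at 4 months and has no value. Steps in the low FPKM values put the depth at 53.4 M fragments in N101D and 35 M in WT. At 1 FPKM, 1 kb of effective length rests on 53.4 fragments in N101D (95% Poisson interval 40 to 69.8) and 35 in WT (24.4 to 48.7), counting error only. Both libraries had Y-linked transcripts at more than 1 FPKM, for example Eif2s3y at 10.9 FPKM in N101D against 7.32 in WT and Ddx3y at 5.51 FPKM in N101D against 9.84 in WT. Xist was marked as failed.

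The libraries were close to each other over most genes. The median difference of all 11242 genes was 0.03, with 6199 genes higher in N101D (55.1%) and 5043 lower (44.9%). At least 2-fold higher in N101D were 60 genes (0.534%), and at least 2-fold lower were 44 (0.391%). At a smaller step of 0.5 on the log2 scale, 399 genes were higher (3.55%) and 284 lower (2.53%). In bulk tissue, fewer cells of a type and less RNA per cell cannot be told apart, and this holds for every group of genes below. The counts follow the scaling: with equal totals outside the crystallins, the median of all genes moved to -0.15, and 37 genes were 2-fold higher and 83 lower.

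The size of the difference went with the kind of row behind a symbol. The tables run 3 times through the chromosomes. The first and second runs follow the plus and the minus strand of the annotated genes and hold the gene models. The third run follows no strand, and 84.8% of its rows with a symbol repeat the listed span of a row of the other runs, some with a very high FPKM. Rows of the first and second block stood for 10899 of the genes, and of these 34 were 2-fold higher in N101D (0.312%) and 31 lower (0.284%). Rows of the third block stood for the other 343, with 26 higher (7.58%) and 13 lower (3.79%). Of these 39 genes, 35 also had a row in the first or second block. In 33 of the 35 that row was within 2-fold between the libraries, and in 2 (Smg6 and Vwa3a) it was 2-fold higher too. On the scale used, a row under 1 FPKM in both libraries cannot reach 2-fold. Some of the 33 rows were that low, for example those of Pcsk2 (0.94 FPKM in N101D against 0.60 in WT) and Ptger3 (0.060 against 0.076). For such rows the count says nothing about a difference. The scaling to equal totals outside the crystallins, which takes in third-block rows, multiplied N101D values by 0.854. With those totals taken over first and second block rows the factor was 0.984. The median of all genes was then 0.01, with 59 genes 2-fold higher and 47 lower.

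**Figure D1:**
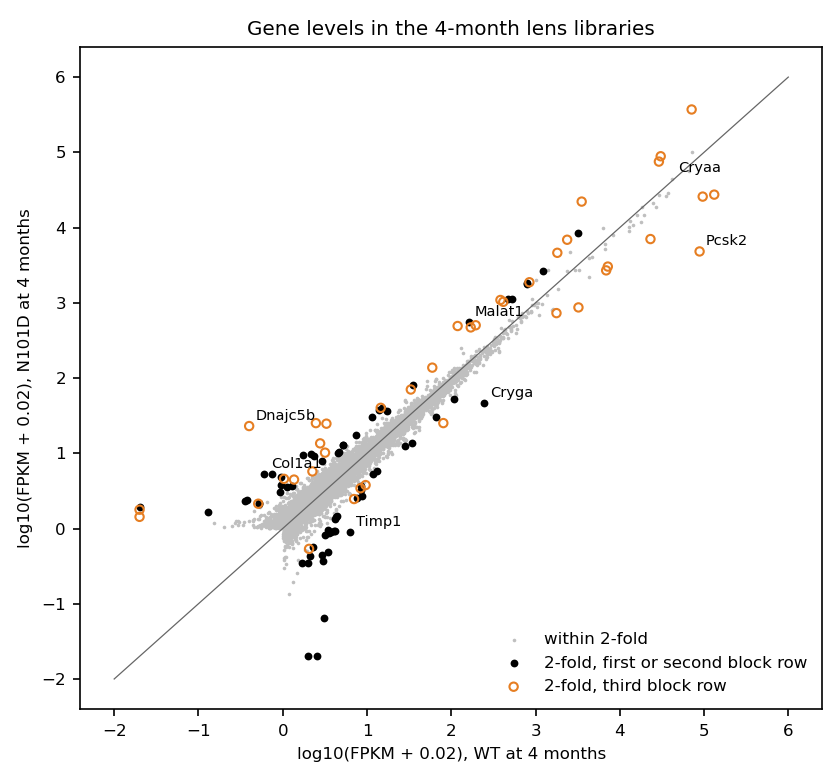
Each point is 1 of 11242 genes, with WT at 4 months on the horizontal and N101D at 4 months on the vertical axis, both as log10(FPKM + 0.02). Grey points are within 2-fold, black points are 2-fold different on a row of the first or second block (34 higher, 31 lower) and open orange circles are 2-fold different on a row of the third block (26 higher, 13 lower). Most genes lie along the line of equal levels, and the third-block circles reach the top of the range, as Pcsk2 does.

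**Figure D2:**
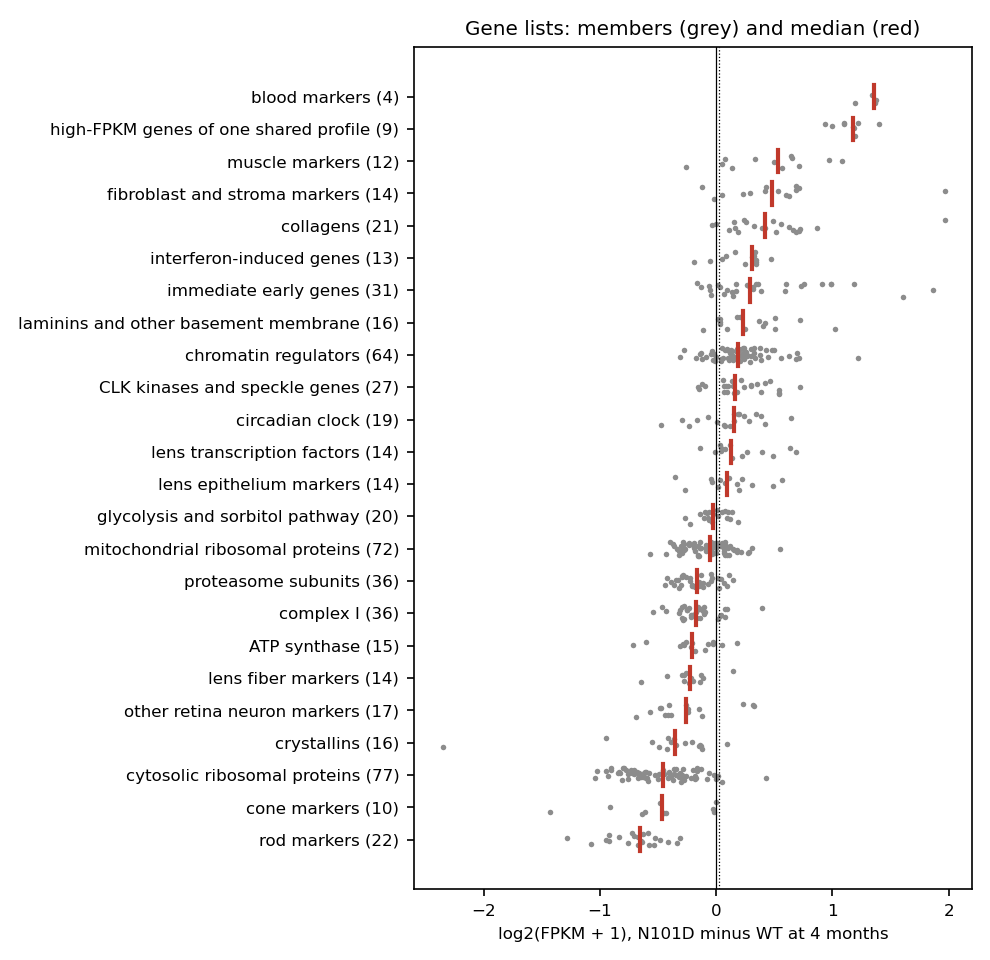
Gene lists in rows, with the number of members analysed in brackets. Grey points are members, red bars are list medians, on the scale of log2(FPKM + 1) in N101D minus WT at 4 months; the dotted line is the median of all genes, 0.03. Blood, muscle, stroma, collagen and immediate early lists have medians above 0.29, while rod, cone and ribosomal protein lists have medians below -0.45.

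Immediate early genes were higher in the N101D lens. These genes are transcribed within minutes of a growth factor, stretch or stress signal, without new protein synthesis, and many encode transcription factors. Of 46 listed, 31 reached the level for analysis, and 26 of the 31 were higher in N101D (83.9%, against 55.1% of all genes) and 5 lower. By 0.5 or more, 10 were higher and 0 lower, against 3.55% and 2.53% of all genes. The median of the list was 0.29. It was 0.12 with equal totals outside the crystallins, 0.15 with a pseudocount of 5 FPKM and 0.16 with no filter on low values.

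Among the AP-1 genes, whose proteins pair to bind DNA as dimers, Fos was at 5.29 FPKM in N101D and 0.726 FPKM in WT, a difference of 1.87 (chromosome 12, 86814797 to 86818219, mm9). Junb was at 7.86 FPKM in N101D and 2.904 FPKM in WT (difference 1.18). Jun was at 6.804 FPKM in N101D and 5.49 FPKM in WT (difference 0.27). Fosl2 was at 2.34 FPKM in N101D and 1.75 FPKM in WT (difference 0.28). Jund (difference 0.07) and Fosl1 (0.02) were near equal. Within the AP-1 genes the gap was thus widest for Fos and Junb. The zinc finger factor gene Egr1 stood at 9.24 FPKM in N101D and 2.36 FPKM in WT (difference 1.61). The orphan nuclear receptor gene Nr4a1 stood at 2.94 FPKM in N101D against 1.099 in WT (0.91). Klf4, a Krueppel-like factor gene, stood at 1.35 FPKM in N101D against 0.8601 in WT (0.34). Of these factors of the same early wave, Egr1 had the largest gap and Klf4 the smallest.

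Among the early genes with other roles, 3 that limit a signal, a cell cycle or an mRNA had wide gaps. Dusp1, a phosphatase that turns off MAP kinases, was at 12.3 FPKM in N101D and 5.71 FPKM in WT (difference 0.99). Btg2, an antiproliferative factor, stood at 14.1 FPKM in N101D against 7.96 in WT (0.75). Zfp36, which destabilizes AU-rich mRNAs, stood at 3.78 FPKM in N101D against 2.17 in WT (0.59). All 3 were higher in N101D by 0.5 or more. Srf, the factor that binds the CArG box of many of these genes, stood at 2.900 FPKM in N101D against 1.58 in WT (0.60). The matricellular gene Cyr61 stood at 7.11 FPKM in N101D against 3.100 in WT (0.98). Ctgf, of the same protein family, stood at 24.3 FPKM in N101D against 19.4 in WT (0.31). Its gap was smaller, at a higher level. The lower members differed by little: Gadd45b by -0.17, Maff by -0.13, Klf6 by -0.06, Ier5 by -0.05 and Errfi1 by -0.04. The 2-month median of these genes was -0.10, and 20 of the 31 members had the opposite sign there, a share near that of all genes (62.8%). At that age Fos stood at 0.427 FPKM in N101D and 0.374 FPKM in WT. Egr1 stood at 0.519 FPKM in N101D and 0.8299 FPKM in WT, so for both genes the N101D library of 4 months held the highest level of the 4.

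The promoters of genes at the top of this list are printed to show the letters of the cyclic AMP response element, the site bound by CREB and related factors. Windows run from 250 bases before to 50 after the transcription start (RefSeq, GRCm38.p6). In capitals are matches, on either strand, to TGACG in Fos and Junb and to the full palindrome TGACGTCA in Dusp1; the shorter motif lies inside the longer one.
Fos (chromosome 12, 85473640 to 85473939, plus strand): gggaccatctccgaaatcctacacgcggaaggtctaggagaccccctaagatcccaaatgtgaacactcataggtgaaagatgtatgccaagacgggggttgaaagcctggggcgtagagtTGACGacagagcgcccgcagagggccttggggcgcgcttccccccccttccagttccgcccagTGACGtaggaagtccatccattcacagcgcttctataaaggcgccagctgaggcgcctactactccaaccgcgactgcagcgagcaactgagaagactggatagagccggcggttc
Junb (chromosome 8, 84978699 to 84978998, minus strand): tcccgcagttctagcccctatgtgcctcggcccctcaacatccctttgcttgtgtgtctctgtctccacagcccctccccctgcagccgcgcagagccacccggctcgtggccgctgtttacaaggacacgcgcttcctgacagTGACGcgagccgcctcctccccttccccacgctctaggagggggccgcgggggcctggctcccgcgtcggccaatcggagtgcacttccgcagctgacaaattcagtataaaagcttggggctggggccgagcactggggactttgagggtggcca
Dusp1 (chromosome 17, 26508423 to 26508722, minus strand): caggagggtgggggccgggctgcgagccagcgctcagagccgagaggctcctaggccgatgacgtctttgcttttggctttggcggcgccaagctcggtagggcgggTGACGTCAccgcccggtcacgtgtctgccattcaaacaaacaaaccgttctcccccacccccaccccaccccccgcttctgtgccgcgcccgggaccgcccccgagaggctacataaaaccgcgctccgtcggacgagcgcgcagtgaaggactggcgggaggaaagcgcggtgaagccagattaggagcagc
The 24 genes of the list found in the promoter table have 33 windows. TGACG was in 14 of them (42.4%), against 20.8% of all 32851 windows counted, and TGACGTCA in 4 (12.1%), against 1.79%. TGACG was as common in windows of ribosomal protein genes (46.3%), which were lower in N101D. The CArG box was in 2 of the 33 windows (6.06%), against 1.63% of all. These matches describe letters in the windows only.

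Circadian clock genes and glucocorticoid-induced genes, which share Per1, Sgk1, Dusp1 or Errfi1 with the early gene list, differed less. Of 19 clock genes 14 were higher in N101D (73.7%, against 55.1% of all genes) and 5 lower, with a median of 0.15. Among the repressors of the loop, Per3 stood at 10.8 FPKM in N101D against 6.58 in WT (0.64) and Per1 differed by 0.39. Among the activators, Clock stood at 8.48 FPKM in N101D against 10.6 in WT (-0.29) and Arntl differed by 0.01. Of 12 glucocorticoid-induced genes 8 were higher (66.7%), with a median of 0.13. With equal totals outside the crystallins the medians turned negative, to -0.06 for the clock list and -0.07 for the glucocorticoid list. Time of day at collection is not given in the sources used here.

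Nuclear noncoding RNAs stood out singly. Malat1, an RNA of nuclear speckles, was at 549.9 FPKM in N101D and 161 FPKM in WT, a difference of 1.76. Neat1, the scaffold of paraspeckles, was at 81.4 FPKM in N101D against 35.4 in WT (1.18). The rest of the list of 18 long noncoding RNAs did not go the same way: its median was 0.04, with Meg3 (0.45) on one side and the snoRNA host gene Snhg6 (-0.54) on the other. Gas5, another snoRNA host gene, stood at 392.05 FPKM in N101D against 589.7 in WT (-0.59). At 2 months Malat1 stood at 205 FPKM in N101D and 169 FPKM in WT. Neat1 stood at 8.898 FPKM in N101D and 18.01 FPKM in WT at that age, lower in N101D. Of 27 CLK kinase and speckle genes 23 were higher in N101D (85.2%, against 55.1% of all genes), with a median of 0.16. The helicase gene Ddx17 led them at 47.9 FPKM in N101D against 28.7 in WT (0.72). Of 64 chromatin regulators 51 were higher (79.7%; median 0.19), among them the histone methyltransferase gene Mll2 at 9.28 FPKM in N101D against 5.33 in WT (0.70). With equal totals outside the crystallins the speckle median turned to -0.04 and the chromatin median to -0.0045, so their direction was not the same under every scaling.

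Crystallin genes were lower in the N101D lens as a family. Of 16 genes 15 were lower, against 44.9% of all genes. The other 1, Cryaa, was higher, and its value may include transgene reads. The median of the 16 was -0.35. With quantile normalization it was -0.02, and with equal totals outside the crystallins -0.58. The sum over the 16 genes was 233089 FPKM in N101D and 277005 FPKM in WT. The gamma crystallins, which are made in young fibers and pack the lens core, spanned the widest range. Cryga (chromosome 1, 65146962 to 65150454, mm9) was at 46.7 FPKM in N101D and 242 FPKM in WT, a difference of -2.35, and was the only crystallin past 2-fold. Cryge stood at 814 FPKM in N101D against 1571 in WT (-0.95). Crygb, the gamma crystallin of highest FPKM, stood at 18552 FPKM in N101D against 27278 in WT (-0.56). The others of the family lay between these and Crygn, at 43.4 FPKM in N101D against 47.6 in WT (-0.13). Reads of Cryge and Crygf, which are close copies, may have been split by the authors' estimation. The beta crystallins lay closer, between the differences of Crybb3 (-0.39) and Cryba2 (-0.12). Crybb2, the beta crystallin of highest FPKM, stood at 56932 FPKM in N101D against 65848 in WT (-0.21). Cryab was at 12119 FPKM in N101D and 13346 FPKM in WT (difference -0.14). At 2 months the list had a median of 0.21, and 13 of the 16 members had the opposite sign, against 62.8% of all genes.

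The Cryga promoter is printed because Cryga is the crystallin that differed most. Capitals mark TGCTGA, the half-site of the element that Maf proteins bind in crystallin promoters.
Cryga (chromosome 1, 65103314 to 65103613, minus strand, GRCm38.p6): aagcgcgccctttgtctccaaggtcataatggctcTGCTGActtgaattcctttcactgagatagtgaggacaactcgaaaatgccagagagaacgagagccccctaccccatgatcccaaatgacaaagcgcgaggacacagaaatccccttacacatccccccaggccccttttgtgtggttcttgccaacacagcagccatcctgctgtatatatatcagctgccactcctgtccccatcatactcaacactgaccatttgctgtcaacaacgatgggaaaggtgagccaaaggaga
TGCTGA was in 10 of the 15 crystallin windows in the table (66.7%), against 19.5% of all windows. Of the Maf genes themselves, Maf stood at 61.6 FPKM in N101D against 62.3 in WT (-0.01), close to equal. Mafg, a small Maf without an activation domain, stood at 5.16 FPKM in N101D against 2.82 in WT (0.69).

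Other fiber genes were lower by less. Of 14 fiber markers 13 were lower and 1 was higher, with a median of -0.23, against 44.9% of all genes lower. Fabp5, which encodes a fatty acid binding protein, stood at 696 FPKM in N101D against 1093 in WT (-0.65). The fiber membrane gene Lim2 stood at 2719 FPKM in N101D against 3293 in WT (-0.28). Dnase2b, the nuclease that degrades DNA as fibers lose their nuclei, stood at 45.9 FPKM in N101D against 61.96 in WT (-0.42). Of 13 genes of denucleation and organelle loss, 10 were lower, with a median of -0.15, and the lowest was the nuclease gene Dnase1l1 at 1.14 FPKM in N101D against 2.82 in WT (-0.84). Dnase2b belongs to both lists.

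Epithelial and regulatory lists had medians closer to 0, whose sign was not the same under every scaling. Of 14 epithelium markers 10 were higher (71.4%, against 55.1% of all genes), with a median of 0.09 that turned to -0.12 with equal totals outside the crystallins. The widest gaps were those of Igfbp5, a secreted binder of insulin-like growth factors, at 29.9 FPKM in N101D against 19.9 in WT (0.56) and Pax6 on the higher side, and of the ceruloplasmin gene Cp (-0.36) and the keratin gene Krt18 (-0.27) on the lower side. Cp stood on a third-block row, and its other third-block rows were higher in N101D, for example 1.90 FPKM against 1.05 in WT. The first-block row joining Cp and Hps3 was lower, at 44.9 FPKM in N101D against 55.0 in WT (-0.29). The epithelial transcription factor gene Foxe3 was near equal at 20.3 FPKM in N101D against 19.8 in WT. Of 14 lens transcription factors 12 were higher, with a median of 0.13, a median that turned to -0.06 with equal totals outside the crystallins. Pax6, the master regulator of eye development, stood at 46.5 FPKM in N101D against 32.9 in WT (0.49). The Notch target Hes1 stood at 20.1 FPKM in N101D against 12.6 in WT (0.64). Other factors of the list were near equal, with differences of 0.07 for Prox1, 0.04 for Pitx3 and 0.04 for Sox1.

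Cytosolic ribosomal protein genes were lower in the N101D lens almost throughout. Of 77 genes 73 were lower (94.8%, against 44.9% of all genes) and 4 higher, and 36 were lower by 0.5 or more (2.53% of all genes) with 0 higher by as much. The median was -0.46, and it stayed between -0.68 and -0.39 under the alternatives run. Of the large subunit, Rpl34 stood at 52.3 FPKM in N101D against 109 in WT (-1.04). Rpl21 stood at 5.31 FPKM in N101D against 11.8 in WT (-1.03), and both were past 2-fold. Of the small subunit, Rps7 stood at 18.7 FPKM in N101D against 36.4 in WT (-0.93). Some genes of high FPKM differed little. Rpl8 stood at 722 FPKM in N101D against 697 in WT (0.05). Rplp0, of the ribosomal stalk, stood at 481 FPKM in N101D against 488 in WT (-0.02). Ribosomal protein genes have many processed pseudogenes, and reads may have been split between copies, so values of single members are uncertain. At 2 months the list had a median of 0.24, and 65 of the 77 had the opposite sign, against 62.8% of all genes.

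The promoters of Rpl34 and Rps7 are printed as the members of lowest difference whose window holds CCGGAAG (capitals; CTTCCGG on the other strand), a core of the site that ETS family factors such as GABP bind near the starts of many ribosomal protein genes. For Rpl34 the window with the match is shown, 1 of several in the table.
Rpl34 (chromosome 3, 130730288 to 130730587, minus strand, GRCm38.p6): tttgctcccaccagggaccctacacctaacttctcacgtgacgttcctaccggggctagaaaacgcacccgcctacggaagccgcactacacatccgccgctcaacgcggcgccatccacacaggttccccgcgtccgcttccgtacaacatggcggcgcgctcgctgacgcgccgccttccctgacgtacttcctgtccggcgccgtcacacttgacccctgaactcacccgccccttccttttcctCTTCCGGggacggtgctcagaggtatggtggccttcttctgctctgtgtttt
Rps7 (chromosome 12, 28635904 to 28636203, minus strand, GRCm38.p6): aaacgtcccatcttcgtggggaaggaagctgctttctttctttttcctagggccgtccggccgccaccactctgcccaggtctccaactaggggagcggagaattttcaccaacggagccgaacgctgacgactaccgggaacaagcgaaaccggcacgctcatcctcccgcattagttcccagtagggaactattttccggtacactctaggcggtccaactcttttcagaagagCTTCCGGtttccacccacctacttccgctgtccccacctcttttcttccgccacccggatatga
CCGGAAG was in 24 of 67 windows of ribosomal protein genes (35.8%), against 8.86% of all windows and 9.09% of immediate early windows.

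Other housekeeping groups were lower by less. Of 63 translation factors 45 were lower (71.4%, median -0.08) and of 72 mitochondrial ribosomal proteins 46 (63.9%, median -0.06), against 44.9% of all genes. Nuclear-encoded genes of oxidative phosphorylation numbered 74, of which 60 were lower and 14 higher, with a median of -0.18 and 5 lower by 0.5 or more. In complex I, which takes electrons from NADH, Ndufa5 stood at 36.7 FPKM in N101D against 53.9 in WT (-0.54) and Ndufa4 differed by -0.46. In complex IV, which passes electrons to oxygen, Cox6c stood at 59.9 FPKM in N101D against 96.3 in WT (-0.68). In the ATP synthase Atp5h stood at 22.5 FPKM in N101D against 37.7 in WT (-0.72). Of 36 proteasome subunits 29 were lower, with a median of -0.17, led by Psma5 at 7.55 FPKM in N101D against 10.6 in WT (-0.44). Of 25 replication-dependent histones 21 were lower (median -0.22). These mRNAs have no poly(A) tail, and whether the library kit selected poly(A) is not given in the sources used here.

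Photoreceptor genes, which a lens does not use, were present in both libraries and lower in N101D. All 22 rod markers listed were analysed, and all 22 were lower in N101D, against 44.9% of all genes. By 0.5 or more, 18 were lower, against 2.53% of all genes. The median was -0.66, and it stayed between -0.87 and -0.59 under the alternatives run. The sum of the 22 was 714 FPKM in N101D and 1162 FPKM in WT, and no marker was at 0. Among the genes of the light response, the transducin alpha subunit Gnat1 stood at 119 FPKM in N101D against 185 in WT (-0.63). Its gamma partner Gngt1 stood at 13.5 FPKM in N101D against 34.3 in WT (-1.28), the lowest difference of the list. The phosphodiesterase subunits differed by -0.67 (Pde6a), -0.70 (Pde6b) and -0.73 (Pde6g). The channel gene Cnga1 stood at 5.28 FPKM in N101D against 10.9 in WT (-0.92). Sag, which encodes the arrestin that ends the signal, stood at 58.9 FPKM in N101D against 114 in WT (-0.95). Pdc, which encodes phosducin, a binder of transducin beta-gamma, stood at 30.7 FPKM in N101D against 65.7 in WT (-1.08). Of the rod transcription factor genes, Nrl stood at 19.2 FPKM in N101D against 37.3 in WT (-0.92), while Crx (-0.53) and Nr2e3 (-0.59) differed by less. Genes of signalling, its shut-off and its transcription were thus lower together. Gnb1, which many cell types use, had the smallest gap of the list (-0.31).

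All 10 cone markers analysed were lower too, against 44.9% of all genes, and 4 by 0.5 or more, against 2.53%. Their median was -0.47 (-0.02 among genes of status OK). Gngt2, the cone transducin gamma subunit, differed by -1.43. The short-wave opsin gene Opn1sw stood at 3.16 FPKM in N101D against 5.36 in WT (-0.61), while Rxrg, Thrb and Opn1mw were within 0.03 of equal. Other retinal neuron markers had 14 of 17 lower (median -0.26), among them Snap25 at 16.1 FPKM in N101D against 26.6 in WT (-0.69). The Mueller glia gene Glul (0.32) and the bipolar cell gene Trpm1 (0.32) were higher. The part of retinal RNA in the other results was not tested. At 2 months the rod list had a median of -0.11 and sums of 657 FPKM in N101D and 721 FPKM in WT, so the WT library of 4 months held the highest sum of the 4.

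**Figure D3:**
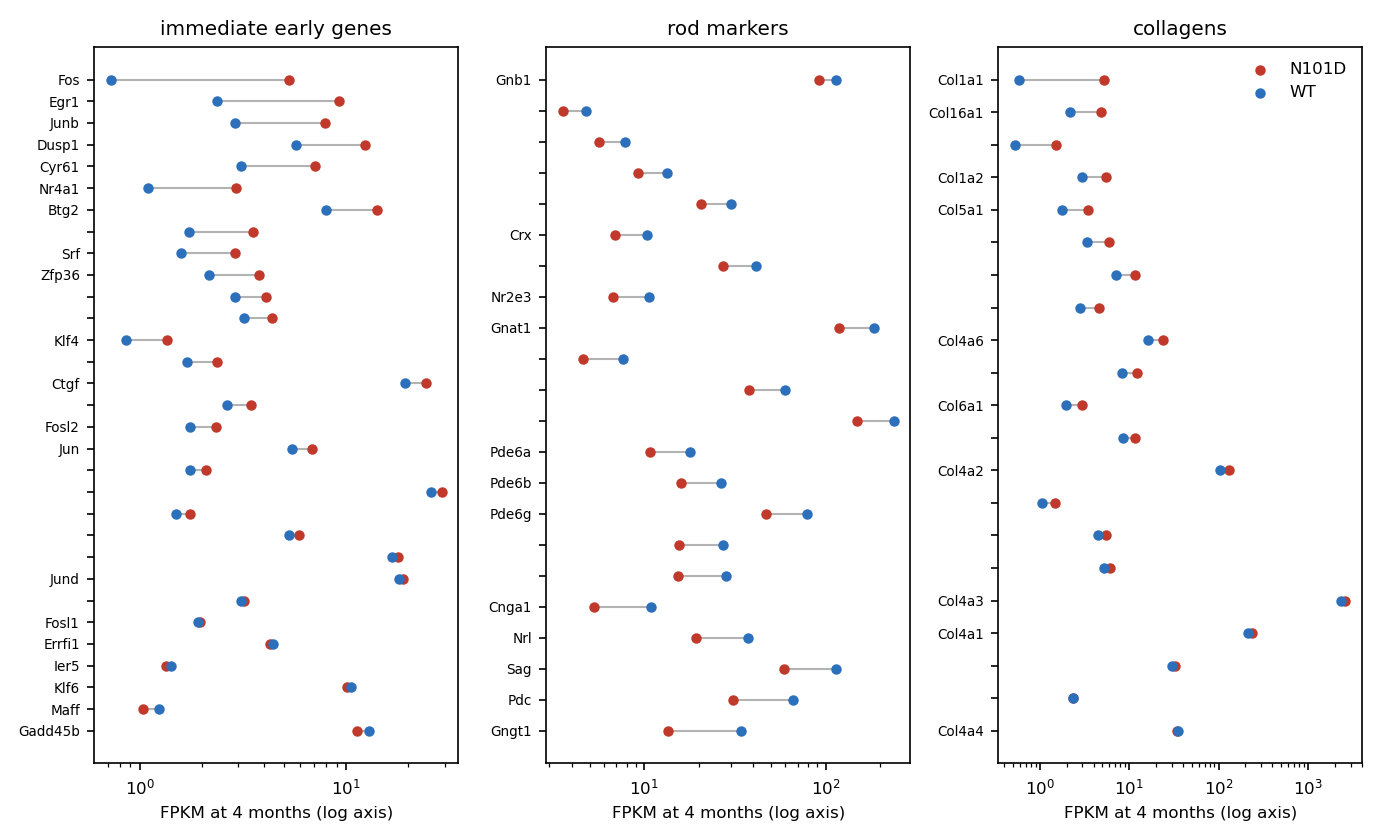
Levels of the members of 3 lists in the 4-month libraries, FPKM on a log axis, with N101D in red and WT in blue; members are ordered by their difference, the highest at the top, and those named in the text carry their symbol. Early genes separate at the top of the left panel (Fos, Egr1, Junb), every rod marker lies lower in N101D in the middle panel, and the gaps of the collagens in the right panel are wide for the fibrillar genes and narrow for Col4a1 and for the third-block row of Col4a3.

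Matrix genes were higher in the N101D lens. Of 21 collagens 20 were higher (95.2%, against 55.1% of all genes) and 1 lower. By 0.5 or more, 9 were higher, against 3.55% of all genes. The median was 0.42 (0.25 with equal totals outside the crystallins, 0.21 with no filter and 0.29 with a pseudocount of 5 FPKM). Of the fibrillar type I genes, Col1a1 stood at 5.22 FPKM in N101D and 0.586 FPKM in WT (1.97). Col1a2 stood at 5.55 FPKM in N101D against 3.002 in WT (0.71). Col16a1, of a collagen that sits on fibrils, stood at 4.81 FPKM in N101D against 2.18 in WT (0.87). The type IV genes of the capsule differed less: Col4a1 stood at 238 FPKM in N101D against 213 in WT (0.16), while Col4a2 differed by 0.33, Col4a6 by 0.51 and Col4a4 by -0.04. The row that stood for Col4a3 belonged to the third block. Of 16 laminin and other basement membrane genes 15 were higher (median 0.23, or 0.04 with equal totals outside the crystallins), with the laminin chain Lama3 at 10.1 FPKM in N101D against 4.46 in WT (1.02) and Lama5 differing by 0.72. Timp1, a secreted inhibitor of metalloproteinases, went the other way at 0.877 FPKM in N101D and 6.19 FPKM in WT, a difference of -1.94. Cgn, which encodes the tight junction protein cingulin, stood at 9.86 FPKM in N101D against 2.14 in WT (1.79).

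Markers of cells around the lens were mostly higher beside the collagens. Of all genes 55.1% were higher. Fibroblast and stroma markers had 12 of 14 higher (median 0.48, or 0.20 with a pseudocount of 5 FPKM), among them the proteoglycan gene Dcn at 9.23 FPKM in N101D against 5.35 in WT (0.69). The list shares Col1a1, Col1a2, Col5a1 and Col6a1 with the collagens. Muscle markers had 11 of 12 higher (median 0.53, or 0.19 with that pseudocount), with the smooth muscle myosin gene Myh11 at 3.05 FPKM in N101D against 0.911 in WT (1.08). Tagln, of the smooth muscle cytoskeleton, differed by 0.97. Acta2, smooth muscle actin, was near equal at 200.1 FPKM in N101D against 193 in WT. Corneal markers had 6 of 8 higher (median 0.34, or 0.02 with no filter on low values), with the corneal keratin gene Krt12 at 17.5 FPKM in N101D against 7.48 in WT (1.12). The 4 haemoglobin genes were all 2-fold higher, against 0.534% of all genes, with Hba-a1 at 40.4 FPKM in N101D against 14.9 in WT (1.38). Hba-a2 differed by 1.34, Beta-s by 1.37 and Hbb-b1 by 1.19. These genes share sequence and are not independent. Among the other red cell genes, Hbb-bh1, Epb4.2 and Car1 were at 0 in both libraries. Macrophage markers had 11 of 14 higher (median 0.18, or 0.03 with equal totals outside the crystallins), with summed levels of 36.4 FPKM in N101D and 31.6 FPKM in WT. Vessel markers had 6 of 9 higher, a share of 66.7% against 55.1% of all genes. The vessel median was 0.32, or 0.12 with those totals, and the sums were 32.9 FPKM in N101D and 27.03 FPKM in WT. Summed stroma markers stood at 946 FPKM in N101D and 904 FPKM in WT, of which Vim, also a lens gene, held 787 FPKM in N101D against 800.0 in WT. The part of these tissues in the matrix and early gene differences was not tested.

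Pigmented tissue markers did not separate the libraries in 1 direction. Of 15 genes 6 were higher and 9 lower, with a median of -0.11 and summed levels of 448 FPKM in N101D and 429.6 FPKM in WT. The melanosome gene Pmel stood at 37.1 FPKM in N101D against 24.7 in WT (0.57). Rpe65, the visual cycle isomerase gene of the retinal pigment epithelium, stood at 12.8 FPKM in N101D against 21.2 in WT (-0.68). Interferon-induced genes had 11 of 13 higher (84.6%, against 55.1% of all genes), with a median of 0.30, or 0.05 among genes of status OK. The largest difference was that of Bst2 at 3.03 FPKM in N101D against 1.91 in WT (0.47), and 0 reached a difference of 0.5. Among complement and antigen presentation genes 13 of 15 were higher (median 0.20, or 0.03 with equal totals outside the crystallins).

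Lists of protein damage responses differed little. The unfolded protein response had 15 of 20 genes lower (75%, against 44.9% of all genes), with a median of -0.04 and 0 genes past 0.5 either way. Its chaperone gene Hspa5 stood at 51.7 FPKM in N101D against 64.9 in WT (-0.32). Hsp90b1 stood at 61.7 FPKM in N101D against 82.4 in WT (-0.41). Cytosolic heat shock genes had a median of -0.05. Hspb2, a small heat shock gene next to Cryab in the genome, stood at 24.5 FPKM in N101D against 13.1 in WT (0.85). The chaperonin gene Hspe1 stood at 48.3 FPKM in N101D against 69.4 in WT (-0.51). Antioxidant and glutathione genes had a median of -0.07, with the secreted peroxidase gene Gpx3 at 212 FPKM in N101D against 138 in WT (0.62) and the metallothionein gene Mt2 at 11.9 FPKM in N101D against 7.703 in WT (0.56). Apoptosis and p53 targets had a median of -0.04, calcium handling and calpain genes -0.01, glycolysis and sorbitol genes -0.03 and sterol synthesis genes -0.02. Hypoxia-induced genes (0.05), splicing factors (0.03), numbered zinc finger genes (0.05) and cell cycle genes (0.07) were as close. Na,K-ATPase genes had a median of -0.04 and complex II genes -0.02.

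Dnajc5b had the largest difference of the genes higher in N101D, and it was higher at 2 months too. The gene encodes a protein of the DNAJC5 (cysteine string protein) family of J-domain cochaperones. The row that stood for it (chromosome 3, 19408594 to 19510862, mm9) belongs to the third block and was listed at 22.99 FPKM in N101D and 0.3798 FPKM in WT, a difference of 4.12. At 2 months it was listed at 29.5 FPKM in N101D and 0.3403 FPKM in WT, a difference of 4.51. A second third-block row in the same span was at 0.504 FPKM in N101D and 0.00749 FPKM in WT, and at 2 months at 0.612 FPKM in N101D and 0.0125 FPKM in WT. The row of the whole gene model, on the plus strand, was at 0 in all 4 libraries. Neighbouring genes were alike in both genotypes, for example Mtfr1 at 9.46 FPKM in N101D against 10.8 in WT, Armc1 at 8.57 FPKM in N101D against 8.37 in WT and Pde7a at 1.803 FPKM in N101D against 1.626 in WT. Among rows with a symbol, the Dnajc5b row was the only one that was higher in N101D by 8-fold or more on this scale at each age. Among rows without a symbol there were 3. Positions of transgene insertion are not given in the sources used here.

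**Figure D4:**
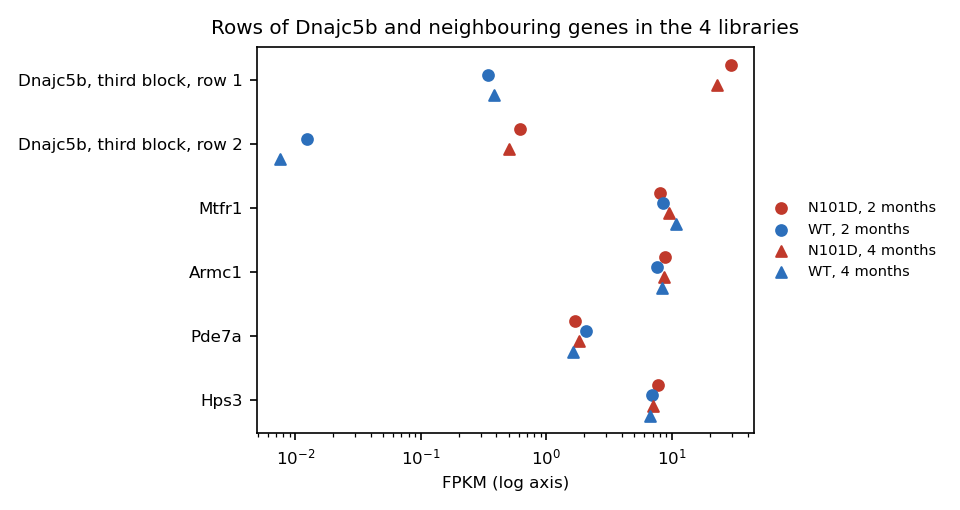
FPKM on a log axis for the 2 third-block rows of Dnajc5b and for 4 neighbouring genes, with circles for 2 months and triangles for 4 months, N101D in red and WT in blue. Both Dnajc5b rows separate the genotypes at both ages (for the first, 22.99 FPKM in N101D against 0.380 in WT at 4 months, and 29.5 in N101D against 0.340 in WT at 2 months), while the neighbours do not.

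Other third-block rows at the extremes mostly stood beside a gene model of the same symbol that was within 2-fold, or too low to reach it. Tspan5 stood on a third-block row at 371150.0 FPKM in N101D against 71274 in WT (2.38), with 29.9 FPKM in N101D against 27.8 in WT on its plus-strand row. Pcsk2 stood at 4815 FPKM in N101D against 88566 in WT (-4.20), with 0.9403 FPKM in N101D against 0.603 in WT on its plus-strand row. Raet1a has third-block rows only. Further third-block rows among the extremes were those of Pde5a (2.59), Raet1a (2.04) and Rbfox1 (1.95) on the higher side and Atoh1 (-2.27), Ptger3 (-1.90), Zfpm2 (-1.90), Ralyl (-1.72) and Laptm4b (-1.64) on the lower side. Over all 6288 third-block rows with a symbol the median was 0.504 FPKM in N101D and 0.212 FPKM in WT, and 1.86% of them were at 0 in N101D against 11.6% in WT. In the first block the median was 1.04 FPKM in N101D and 0.954 FPKM in WT.

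Among gene models of the first and second block, a further gene at the upper extreme was 1600012H06Rik at 9.36 FPKM in N101D against 1.72 in WT (1.93). Syce2, a synaptonemal complex gene, stood at 4.78 FPKM in N101D against 0.941 in WT (1.57). On the lower side stood Dock2, a Rac activator of leukocytes, at 0.0446 FPKM in N101D against 3.06 in WT (-1.96) on its row of highest mean. Its other rows over the same span were higher in N101D, at 0.371 FPKM against 0.0442 in WT and 0.0477 FPKM against 0.0187 in WT. Mtcp1 stood at 0.471 FPKM in N101D against 3.44 in WT (-1.59). Lnx1, a ubiquitin ligase gene, stood at 0.422 FPKM in N101D against 2.901 in WT (-1.46). All 3 were under 1 FPKM in N101D. Vtn, which encodes vitronectin, an adhesion protein of plasma and matrix, stood at 12.3 FPKM in N101D against 28.1 in WT (-1.13). On its row of highest mean, Efha1, a gene of the mitochondrial calcium uniporter complex, was lower in N101D (15.05 FPKM in N101D against 27.7 in WT; -0.84). In all, 5 genes were listed at 0 in 1 library and at 1 FPKM or more in the other. Mir99a (2.55 FPKM in WT) and Mir1907 (1.99 FPKM in WT) were listed at 0 in N101D, and Slc39a5 (1.91 FPKM in N101D), Arg2 (1.41 FPKM) and Spatc1 (1.76 FPKM) were listed at 0 in WT. The last pair stood on third-block rows.

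A set of 9 genes with a shared profile of high FPKM was 9 of 9 higher in N101D, 7 of them by 2-fold, with a median of 1.18, after 2.18 at 2 months. It was drawn up from these data, so its direction is not separate evidence. The row listed under Mir715 (chromosome 17, 39979957 to 39985798, mm9) stood at 8344 FPKM in N101D against 3168 in WT (1.40). The row listed under Lars2, the mitochondrial leucyl-tRNA synthetase gene, differed by 1.10. Whether rows of this set measure the RNA of the gene they are listed under was not tested. Jarid2, a polycomb gene, differed by 1.22 on its row of highest mean, at 1108 FPKM in N101D against 476 in WT. Its second-block row differed by 0.78. Another first-block row of Jarid2 was near equal, at 8.13 FPKM in N101D against 7.45 in WT (0.11).

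The difference between the libraries ran with transcript length. Lengths were those of the longest annotated transcript (GENCODE M21), found for 87.5% of the genes on first and second block rows. Genes of up to 750 bases had a median of -0.16 with 24.5% higher in N101D, those of 2000 to 3000 bases 0.01 with 51.8% higher, and those over 6000 bases 0.09 with 65.2% higher. At 2 months the order was the opposite, with medians of 0.04, -0.06 and -0.17 in the same classes. By level, genes with a mean under 2 FPKM had a median of 0.07, those of 10 to 50 FPKM -0.03 and those of 50 to 500 FPKM -0.13. Within 5 to 20 FPKM the medians were -0.07 up to 1000 bases and 0.06 over 6000 bases. At lengths over 6000 bases the medians were 0.10 under 5 FPKM, 0.06 at 5 to 20 FPKM and 0.06 above, and up to 1000 bases -0.07, -0.07 and -0.21 in the same classes of level. The difference thus went with length within each class of level.

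Gene lists sit differently on these scales. Ribosomal protein genes had a median length of 1049 bases. The 34 of up to 1000 bases had a median of -0.54, against -0.11 for the 399 other genes of that length. The 34 also stood at a higher level, with a median of 66.2 FPKM against 8.46 for the 399. Crystallins had a median length of 841.5 bases, a class whose genes had a median of -0.10. Rod markers had 3059.5 bases, a class with a median of 0.05. Collagens had 5658 bases and chromatin regulators 6726 bases, classes with medians of 0.06 and 0.09. The part of length in the list differences was not tested.

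**Figure D5:**
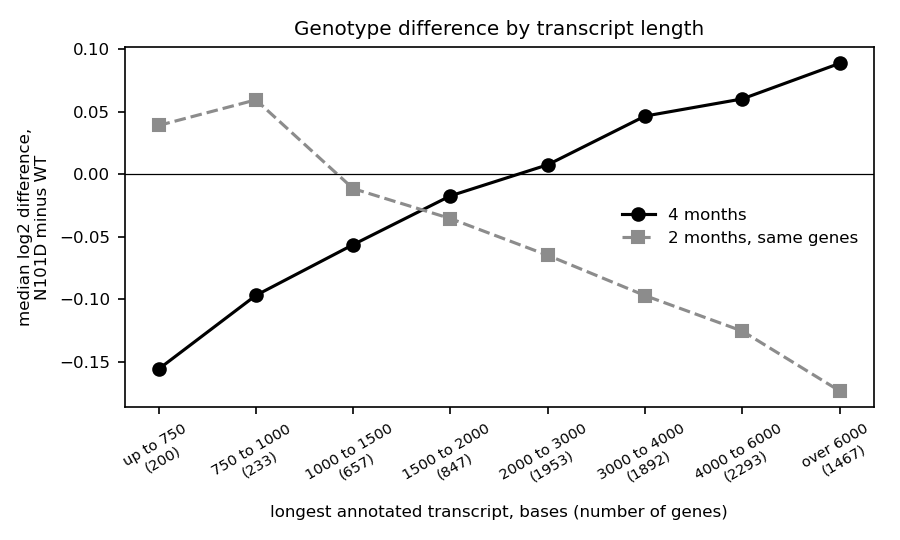
Median log2(FPKM + 1) difference, N101D minus WT, of genes on first and second block rows, by the length of the longest annotated transcript, with the number of genes in brackets. The 4-month medians climb from -0.16 to 0.09 with length (circles), and the 2-month medians of the same genes run down to -0.17 (squares).

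Differences at 4 months were set beside those at 2 months, where 35.5% of all genes were higher in N101D and 64.4% lower. Of 59 genes 2-fold higher at 4 months with a 2-month value, 25 were higher at 2 months by any amount, and of 44 genes 2-fold lower, 15 were lower. Higher by 2-fold or more at each of the ages were 15 genes, 9 of them on third-block rows, and lower by as much were 5, among them Gngt2, Slc25a13, Nudt17 and, on a third-block row, Rbmx2. Gngt2 stood at 0.909 FPKM in N101D against 4.16 in WT at 4 months, and at 0.134 FPKM in N101D and 2.47 FPKM in WT at 2 months. Slc25a13, which encodes a carrier of aspartate and glutamate in mitochondria, stood at 0.891 FPKM in N101D against 3.69 in WT at 4 months, and at 0.396 FPKM in N101D and 3.75 FPKM in WT at 2 months. Both were at low levels. Nudt17 differed by -1.14 at 4 and -1.24 at 2 months, and Rbmx2 by -1.09 at 4 and -1.14 at 2 months. Opposite and 2-fold at both ages were 16 genes. The N101D library of 2 months had its 4 Y-linked genes at or below the 0.303 FPKM of Ddx3y, lower than in the other 3 libraries, and the tables of the 2 ages were made separately. The genotype difference at 2 months is therefore given beside that at 4 months as values only.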

How the data were processed

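Lens RNA was extracted with Trizol, and libraries followed the TruSeq kit, per the labels' protocols. The authors deposited FPKM for 44597 rows per library, with CASAVA 1, TopHat 1.2.0, Cufflinks 1.0.3, Cuffdiff and mm9 named in the submitters' processing notes; the annotation and the Cuffdiff version are not given in the sources used here. Left out were 15488 rows without a symbol, 33 rows whose symbol had become a date and 488 rows marked FAIL at 4 months. No count test was run: with 1 library a side there is no replicate, so differences of log2(FPKM + 1) and list medians are values only. The kit is not said to mark strand, so a gene and its antisense partner cannot be told apart. Positions are given as listed; whether starts count from 0 is not given either. Depth came from steps in FPKM times length, with 91.5% of 354 values in N101D and 96% of 2526 in WT within 0.05 of a whole read.

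Named genes are the 15 highest and 15 lowest of all, the same among genes at 10 FPKM or more in the higher library, those 2-fold the same way at both ages, those listed at 0 in 1 library, and up to 5 members of each of 52 lists with the largest differences plus every member past 2-fold; Efha1 and some list members are shown for their role, and some genes the rule names are not reported here. The members and lists were chosen with earlier results of these data known. The 2-fold calls and the depth estimate were tested on simulated data, the list sums and medians were not. Python 3.11.15 with pandas 2.3.3 and numpy 2.4.6 was used. The alternatives were pseudocounts of 0.1 and 5 FPKM, a filter at 5 FPKM and none, 3 other scalings, summed rows, status OK only, and 2 chosen after seeing the data, both based on first and second block rows. Promoter windows are RefSeq's (GRCm38.p6), without those of chromosome 18.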

Additional observations from a re-analysis of the deposited data

Results flagged for a closer look

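Of 11222 genes with a 2-month value, 16 had a 2-fold genotype difference at 4 months opposite to a 2-fold difference at 2 months. Of these 16, 15 are named. The difference between the ages was not tested, and single libraries stand behind each value. At 2 months macrophage markers summed to 3.12 FPKM in N101D and 35.7 FPKM in WT, and pigmented tissue markers to 74.8 FPKM in N101D and 455 FPKM in WT. Rod marker sums were closer, at 657 FPKM in N101D and 721 FPKM in WT. The part of surrounding tissue in these reversals was not tested. On first and second block rows, higher in N101D at 4 months and lower at 2 months were Col1a1 (1.97), Slc39a5 (1.54), Hba-a1 (1.38), Hba-a2 (1.34) and Sned1 (1.04). The reverse held for Dock2 (-1.96, on its row of highest mean only), Uox (-1.28) and Dffb (-1.17). On third-block rows, higher at 4 months and lower at 2 months were Pde5a (2.59), Fbxo8 (1.46), Smg6 (1.31) and Rims2 (1.15), and the reverse held for Pcsk2 (-4.20), Ptger3 (-1.90) and Laptm4b (-1.64).

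Signals also stood in rows outside the comparison. Rows without a symbol had a median of 0.536 FPKM in N101D and 0.295 FPKM in WT at 4 months. A third-block row of Cryaa, listed on chromosome 17 from 31819595 to 31820132 (mm9) beyond the gene's own span, was at 7.32 FPKM in N101D and 0.914 FPKM in WT, and at 0.221 FPKM in N101D and 0.106 FPKM in WT at 2 months. The lower of the third-block rows of Dnajc5b was at 0.504 FPKM in N101D and 0.00749 FPKM in WT.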

How the results depend on the processing

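The 60 higher and 44 lower genes became 131 and 95 with a pseudocount of 0.1 FPKM, 31 and 11 with one of 5 FPKM, 44 and 24 with a filter at 5 FPKM, 43 and 26 with status OK only, 37 and 83 with equal totals outside the crystallins, 53 and 54 with quantile normalization, 78 and 41 with summed rows, and 37 and 32 on first and second block rows only. The share of calls that were higher went with the scaling (57.7%, 30.8% with equal totals outside the crystallins). That scaling also turned the medians of clock genes (-0.05697), glucocorticoid-induced genes (-0.0697), lens transcription factors (-0.0641), lens epithelium markers (-0.12), metalloproteinases (-0.0419), junction genes (-0.0794), speckle genes (-0.0391) and chromatin regulators (-0.0045). Taken over first and second block rows it gave 59 and 47. On those rows only, Laptm4b (0.0384), Adamts17 (-0.48), Fbxo8 (-0.47), Ccm2 (0.0744) and Itga9 (-0.54) turned, since another row then stands for the symbol. Of 33 lists with a median of at least 0.1 either way, 26 kept their sign under every alternative run. The depth of 35 M fragments in WT limits genes near 1 FPKM. No paired analysis was possible because each group has 1 library.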
